A study of Mus musculus with 8 samples.

Results

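The Wnt signal transduction genes described here were Cdk14, Dixdc1, Dvl1, Dvl2, Dvl3, Axin1, Axin2, Ctnnb1, Lrp5 and Lrp6, measured in tissue labelled brown adipose tissue (BAT) from mice given saline or the periodontal bacterium *Porphyromonas gingivalis*. The members were all 26 probes, spotted once each, whose gene name on the array was 1 of these 10 genes, of 56605 probes and 37074 gene names in all. Cdk14 and Dixdc1 were on the list because a probe of each had passed the call in the comparison described here, so their values are a description without a test. The other 8 genes joined them by their place in the pathway. All mice were C57BL/6J and 12 weeks old, and all had an intravenous injection 18 h before the tissue was taken. Control (Co) mice had 100 μL of saline and Pg mice had sonicated *P. gingivalis* in the same volume. The labels print the dose as 108 CFU, where the study's methods set the 8 as an exponent of 10. Each group had 4 single-color Agilent arrays, taken here as 1 per mouse, since the labels number the samples of each group and the study's methods give n = 4.

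In the canonical Wnt pathway, a Wnt ligand brings a Frizzled receptor together with the co-receptors Lrp5 and Lrp6, and kinases phosphorylate the tails of the co-receptors. Dishevelled proteins then draw Axin to the membrane, so that the destruction complex no longer marks beta-catenin for breakdown, and beta-catenin enters the nucleus and works with TCF/LEF factors. In adipose tissue the pathway is known for holding preadipocytes back from becoming adipocytes. Cdk14 is a membrane-bound kinase that, with cyclin Y, phosphorylates Lrp6. Dixdc1 carries a DIX domain, the interaction domain that dishevelled and axin proteins also have.

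Cdk14 and Dixdc1 were the only genes of the 10 with a probe called, that is, with an adjusted p under 0.1 and a fold change above 1.5 in limma over all 33819 probes tested. Of the 21 member probes tested, 2 were called, 1 higher and 1 lower in Pg mice, against 1.61% of all probes tested (0.313% higher and 1.3% lower). The lower one, a Cdk14 probe, passed the background filter through its 4 Co arrays alone, with 0 Pg arrays. Its call therefore gives no measured size of a decrease. These 2 calls are what put both genes on the list. Of 17 tested probes of the other 8 genes, 0 were called by limma, and 4 had an unadjusted p under 0.05, a share that was 22.8% over all probes. Their log2 fold changes ran from -0.34 to 0.25. Of the tested Cdk14 probes, 1 was lower and 2 were higher in Pg mice, and the only Dixdc1 probe bright enough to be tested was higher. With the array column on the slide, which the Co and Pg arrays of the same number shared, as a block, 0 of all probes were called by limma.

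The tested Cdk14 probes and the Dixdc1 probes whose groups did not overlap are shown by the first 30 of their 60 bases, 5′ to 3′, because each probe reads a different stretch of its gene. Positions are those of the array files on build mm9, on the minus strand. The files give the transcript each probe was designed on and not whether it lies in an exon or UTR of the gene's main transcript.
Cdk14 ENSMUST00000153331, chr5:5131876-5131935: gactaccacaagttcatgcctacgatgtaa
Cdk14 ENSMUST00000134867, chr5:5008922-5008981: cacagacacttgatatacaaaacgctcttt
Cdk14 NM_011074, chr5:4805854-4805913: catgtgtcttgtccacatcttaccttttcc
Dixdc1 ENSMUST00000117093, chr9:50517818-50517877: gatggaatgctttctatcttgtgtgaattg
Dixdc1 NM_178118, chr9:50490139-50490198: aatctctagcctcatggagcgtctgcatgt

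Some facts of the arrays bear on the dim probes among these. All 8 arrays were on 1 slide and in 1 scan, with Co mice in array row 1 and Pg mice in row 2, so that row and group cannot be told apart, and with replicate 1 to 4 of each group in columns 1 to 4. The scanner software marked 34760 to 35831 probes of each Co array as well above background, and 31132 to 34064 of each Pg array. The lowest signal well above background lay between 3.67 and 4.01 (log2) on the Co arrays and between 4.06 and 4.72 on the Pg arrays. Of 10 brown adipocyte markers, 7 were well above background on all 8 arrays, whereas Ucp1, the uncoupling protein that defines brown fat, and Elovl3 were not on any array. The defining marker of the labelled tissue was thus not detected on these arrays. The study's own PCR measured Ucp1 in BAT and found it lower in Pg mice. Since skeletal muscle markers were also detected on every array, the samples cannot be taken as brown fat alone. The share of muscle in them was not measured. All 8 general adipocyte markers and all 10 skeletal muscle markers were well above background on all 8 arrays. The summed level of each of the 7 marker lists overlapped between the groups, and 0 probes of any list were called by limma. The median log2 fold changes furthest from 0 were those of the macrophage list, at 0.27 with 4 of 6 probes higher in Pg mice, and the neutrophil list, at 0.24 with 5 of 5 tested probes higher, and those of the other 5 lists ran from -0.07 for muscle to 0.11 for endothelium. The summed level of the macrophage list lay between 14.68 and 14.92 (log2) in Co mice and between 14.76 and 15.00 in Pg mice, and that of the neutrophil list between 15.29 and 15.61 and between 15.53 and 15.75. The sum of the muscle list lay between 21.03 and 21.16 (log2) in Co mice and between 21.00 and 21.11 in Pg mice, and that of the endothelial list between 14.11 and 14.43 and between 14.38 and 14.46. The part of the cell makeup in the results below was not tested. In bulk tissue, fewer cells of a type and less RNA per cell cannot be told apart.

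Cdk14 had 6 probes, of which 3 were tested, meaning well above background on at least 4 arrays. Levels here are log2 of the quantile-normalized processed intensity. The probe for ENSMUST00000153331 stood at 4.19, 4.40, 4.35 and 4.23 in Co mice and at 2.67, 2.87, 2.71 and 2.12 in Pg mice. It was well above background on all 4 Co arrays and on 0 of the Pg arrays, and the groups did not overlap, as was so for 15.8% of all probes tested. The Co mean was 4.29 ± 0.10 (SD, n = 4). No fold or log2 difference is given for this probe, because its Co mean lay below 4.47, the mean of the lowest signals well above background on the Pg arrays. Before normalization its intensity lay between 17.6 and 19.0 units in Co mice and between 4.22 and 7.35 in Pg mice.

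The probe for ENSMUST00000134867 went the other way. It stood at 4.14, 4.03, 5.10 and 4.46 in Co mice and at 6.04, 6.14, 6.04 and 4.47 in Pg mice, with a difference of 1.24, which was 0.44 with normexp correction. The first 3 Pg arrays lay above every Co array, whereas Pg replicate 4 lay at the level of Co replicate 4, so that the groups overlapped. This probe passed the background mark on 3 Co and 4 Pg arrays, and it was not called. The 2 probes lie 122954 bases apart, and after the group means were taken off, their values had a Pearson r of 0.83 over the 8 arrays, which was 0.20 without Pg replicate 4, the lowest Pg array on both. The 4 Pg values of the ENSMUST00000153331 probe were below the background mark, so this r describes signals and not levels.

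The RefSeq probe of Cdk14, NM_011074, was the only 1 of the 6 well above background on all 8 arrays. Its level was 6.62, 6.83, 7.19 and 7.17 in Co mice and 7.26, 7.31, 7.04 and 7.34 in Pg mice. The Pg mean was higher by 0.29, or by 0.18 to 0.37 with an array left out. The groups overlapped, since Pg replicate 3 lay below Co replicates 3 and 4. It lies 326.022 kb from the probe for ENSMUST00000153331 and 203.068 kb from that for ENSMUST00000134867. After the group means were taken off, its r with the latter was 0.18, and none is given with the former, whose Pg values were all below the background mark.

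None of the remaining Cdk14 probes passed the background mark on any array. The probe for ENSMUST00000171119 lay between 3.00 and 3.87 in Co mice and between 2.99 and 4.41 in Pg mice. The probes for ENSMUST00000132390 and ENSMUST00000133465 held the scanner software's surrogate, a stand-in for values too close to background, on all 8 arrays. On the scale before normalization the surrogate itself was higher in Pg mice, at 4.24 to 6.59 units for ENSMUST00000132390 against 3.02 to 3.41 units in Co mice. The ENSMUST00000153331 probe held no surrogate on any array, but its Pg values were all below the background mark. Before normalization they lay between 4.22 and 7.35 units, near the surrogate of the Pg arrays, so they give no measured Pg level.

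**Figure D1:**
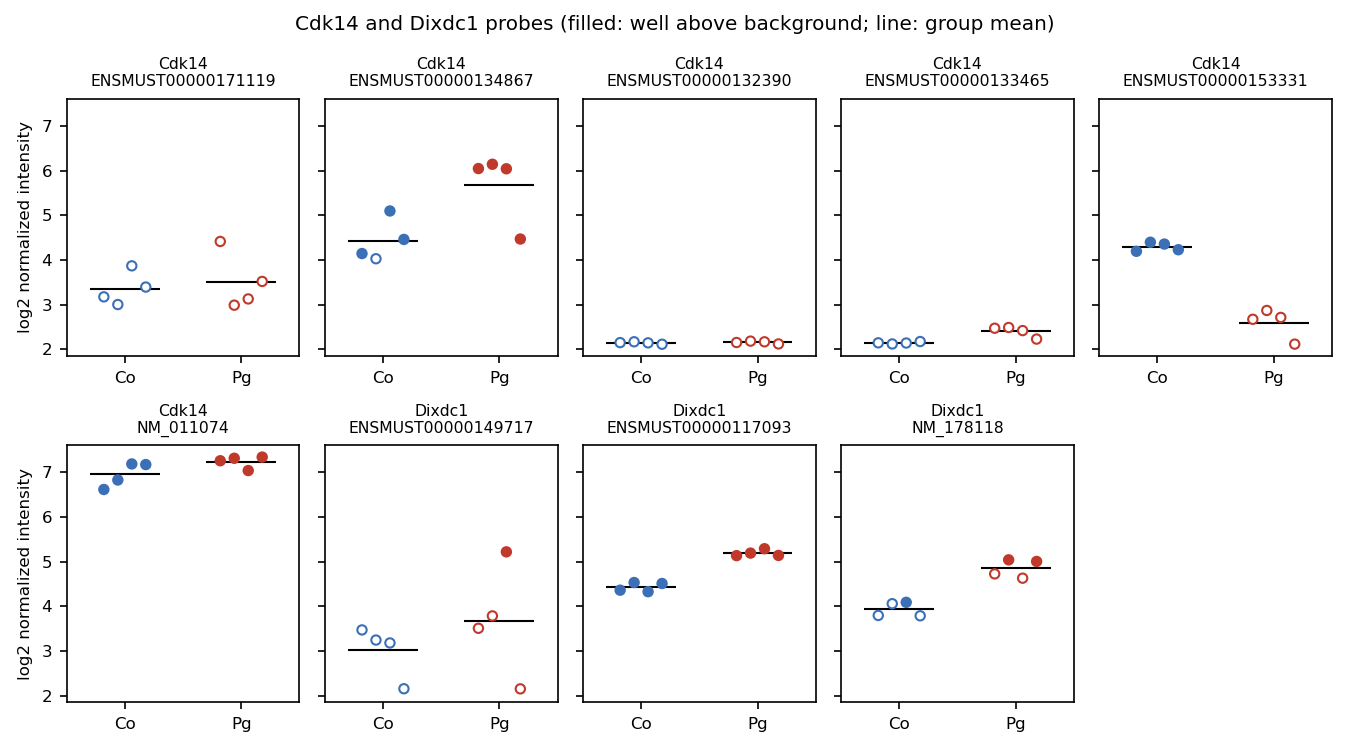
Log2 normalized intensity of the 6 Cdk14 and 3 Dixdc1 probes on each array, with Co in blue, Pg in red and lines at the group means; filled points were well above background. The ENSMUST00000153331 probe of Cdk14 is filled in Co mice only, the ENSMUST00000134867 probe is higher on 3 of the 4 Pg arrays, and the NM_011074 probe overlaps between the groups.

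Dixdc1 had 3 probes and 1 was tested. The probe for ENSMUST00000117093 stood at 4.36, 4.53, 4.33 and 4.51 in Co mice and at 5.14, 5.19, 5.29 and 5.14 in Pg mice. Every Pg array lay above every Co array, and the probe was well above background on all 8. The means were 4.43 ± 0.10 and 5.19 ± 0.07 (SD, n = 4 each), a difference of 0.75 or 1.69-fold, which was 0.21 and not called with normexp correction. The intensity before normalization lay between 18.2 and 21.8 units in Co mice and between 36.7 and 40.3 units in Pg mice.

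The RefSeq probe of Dixdc1, NM_178118, was too dim to be tested, with 1 Co and 2 Pg arrays well above background. It stood at 3.80, 4.06, 4.09 and 3.79 in Co mice and at 4.73, 5.04, 4.63 and 5.01 in Pg mice. The groups did not overlap here either. Most of these values were not well above background, so they give no measured difference in level. This probe lies 27.679 kb from the called one. The probe for ENSMUST00000149717 was well above background on Pg replicate 3 only, where it stood at 5.22, and elsewhere it lay between 2.16 and 3.79.

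By their log2 levels over the 8 arrays, the genes most like the tested Dixdc1 probe were Egfl7, Lrrc17 and Plk2. Their Pearson r were 0.984, 0.980 and 0.977, and their own log2 fold changes were 0.42, 0.27 and 0.66. No such genes are named for the lower Cdk14 probe, because its 4 Pg values were not well above background. The genes named for Dixdc1 were picked as the highest correlations among all genes tested, and the points share the 8 arrays and the group difference.

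Dvl1, Dvl2 and Dvl3 code for the dishevelled proteins, which pass the signal from the receptors to the axin complex. Their 6 probes were well above background on all 8 arrays, and 0 were called. The Dvl2 probe for ENSMUST00000102575 had the lowest fold change of the 8 genes, at 7.38, 7.28, 7.71 and 7.52 in Co mice and 7.37, 6.999, 7.07 and 7.07 in Pg mice. The log2 fold change was -0.34 ± 0.12 (SE, n = 4 each), with limma's adjusted p at 0.142. Pg replicate 1 lay within the Co range, so the groups overlapped. The other Dvl2 probe, NM_007888, had a log2 fold change of -0.15 (limma, adjusted p = 0.370).

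The Dvl1 probes read opposite signs. The probe at base 3181 of the transcript stood at 12.93, 12.98, 12.90 and 12.98 in Co mice and 12.97, 13.18, 13.19 and 13.05 in Pg mice, a log2 fold change of 0.15 (limma, adjusted p = 0.243). The probe at base 2807, 374 bases away, stood at 11.72, 11.70, 11.73 and 11.76 in Co mice and 11.49, 11.70, 11.56 and 11.52 in Pg mice, a log2 fold change of -0.17 (limma, adjusted p = 0.165). In the latter probe all Pg values lay below all Co values, Pg replicate 2 by less than 0.01. The Dvl3 probes at bases 1307 and 2162 had log2 fold changes of -0.07 and 0.13, with limma adjusted p of 0.865 and 0.418. The sign of the first turned with the scaling, to 0.042 when arrays were scaled to their 75th percentile.

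Axin1 and Axin2 code for the scaffolds of the destruction complex, and Axin2 is also a common target gene of the pathway. Axin1 had log2 fold changes of -0.14 and -0.10 at its 2 probes, with limma adjusted p of 0.375 and 0.364. The brighter Axin2 probe, at base 4142, stood at 7.62, 7.64, 7.77 and 7.87 in Co mice and 7.77, 7.63, 7.46 and 7.64 in Pg mice. Its log2 fold change was -0.10, with a 95% interval from -0.31 to 0.10 (limma, adjusted p = 0.529). The Axin2 probe at base 1971 was dim, passing the background mark on 4 Co and only 2 Pg arrays, and its log2 fold change was 0.19 (limma, adjusted p = 0.555).

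Ctnnb1 codes for beta-catenin itself. Its probe at base 3271 had the narrowest interval of the 17, at 12.32, 12.33, 12.41 and 12.39 in Co mice and 12.30, 12.27, 12.32 and 12.36 in Pg mice. The log2 fold change was -0.05, with a 95% interval from -0.17 to 0.07 (limma, adjusted p = 0.613). The groups overlapped, and the interval includes 0. The other Ctnnb1 probes, ENSMUST00000154687 and the NM_007614 probe at base 892, had log2 fold changes of -0.11 and -0.19, with limma adjusted p of 0.610 and 0.333. All 3 thus had the same sign, and none was called.

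Lrp5 and Lrp6 code for the co-receptors, the second of which is the substrate of Cdk14. The Lrp6 probe at base 5362 had the lowest adjusted p of the 8 genes. It stood at 11.12, 11.06, 11.04 and 11.28 in Co mice and at 11.38, 11.28, 11.44 and 11.38 in Pg mice, and the groups did not overlap, by a margin of less than 0.01 between Co replicate 4 and Pg replicate 2. The log2 fold change was 0.25 ± 0.07 (SE, n = 4 each). It met neither limit of the call, at 1.19-fold and an adjusted p of 0.107 in limma. The Lrp6 probe at base 4597 pointed down, at 8.15, 8.05, 7.91 and 8.04 in Co mice and 7.62, 7.53, 7.75 and 8.05 in Pg mice, for a log2 difference of -0.30 (limma, adjusted p = 0.179). Pg replicate 4 alone lay within the Co range there. The Lrp5 probes had log2 fold changes of 0.05 (NM_008513) and -0.12 (AK081025), with limma adjusted p of 0.795 and 0.627, and the latter turned to 0.027 without normalization between arrays.

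**Figure D2:**
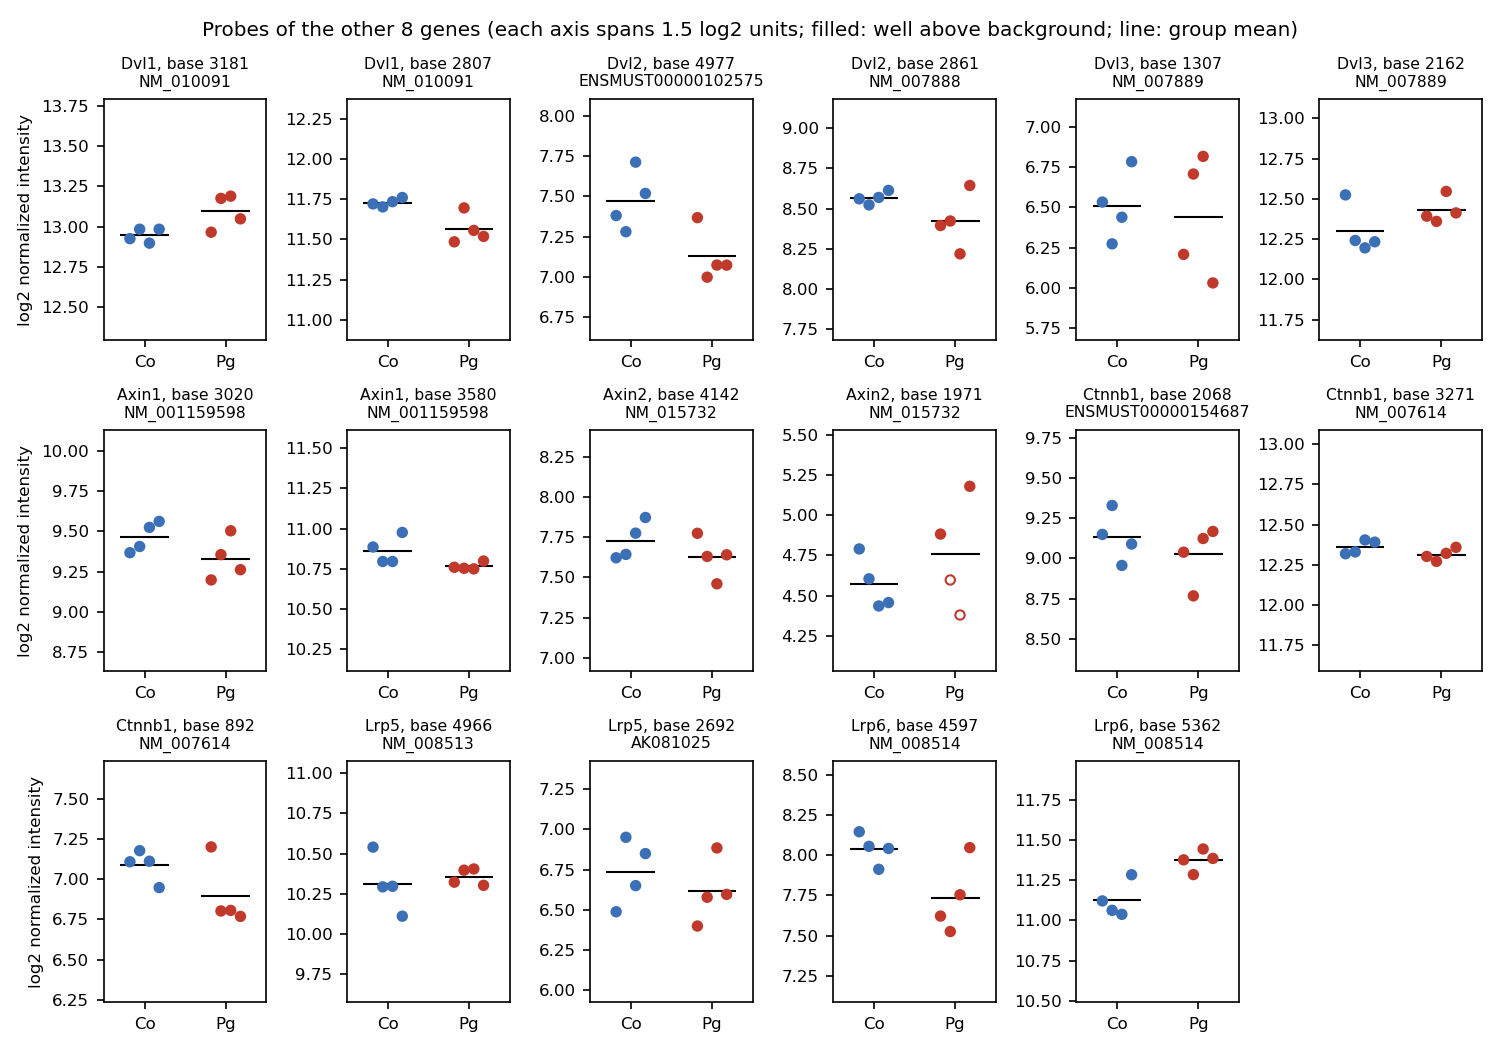
Log2 normalized intensity of the 17 probes of Dvl1, Dvl2, Dvl3, Axin1, Axin2, Ctnnb1, Lrp5 and Lrp6 on each array, with Co in blue, Pg in red and lines at the group means; each axis spans 1.5 log2 units, and levels of different probes are not comparable. Co and Pg points overlap in all panels but Dvl1 at base 2807 and Lrp6 at base 5362.

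Probes of a gene gave different signs in 5 of these 8 genes and in Cdk14, although for Dvl3 and Lrp5 this changed with the scaling. In Cdk14 the lower probe had 0 Pg arrays well above background. Whether a pair of probes differed in response was tested on the difference between the 2 probes within each array, over 10 pairs, with an exact two-sided permutation test of the 70 splits, which cannot give a p under 0.0286. The Lrp6 difference (base 4597 minus base 5362) lay between -3.24 and -2.98 in Co mice and between -3.76 and -3.34 in Pg mice. It changed by -0.55 (exact permutation p = 0.0286, adjusted over the 10 pairs p = 0.143). The Dvl1 difference (base 3181 minus base 2807) lay between 1.16 and 1.28 in Co mice and between 1.48 and 1.63 in Pg mice, a change of 0.31 with the same p and adjusted p in the exact test. Neither pair reached an adjusted p under 0.1. More than 2 of the 10 pairs at the smallest p the design allows would have been needed for that. The other 8 pairs changed by 0.04 to 0.29 in size, with exact permutation p from 0.229 to 0.629.

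**Figure D3:**
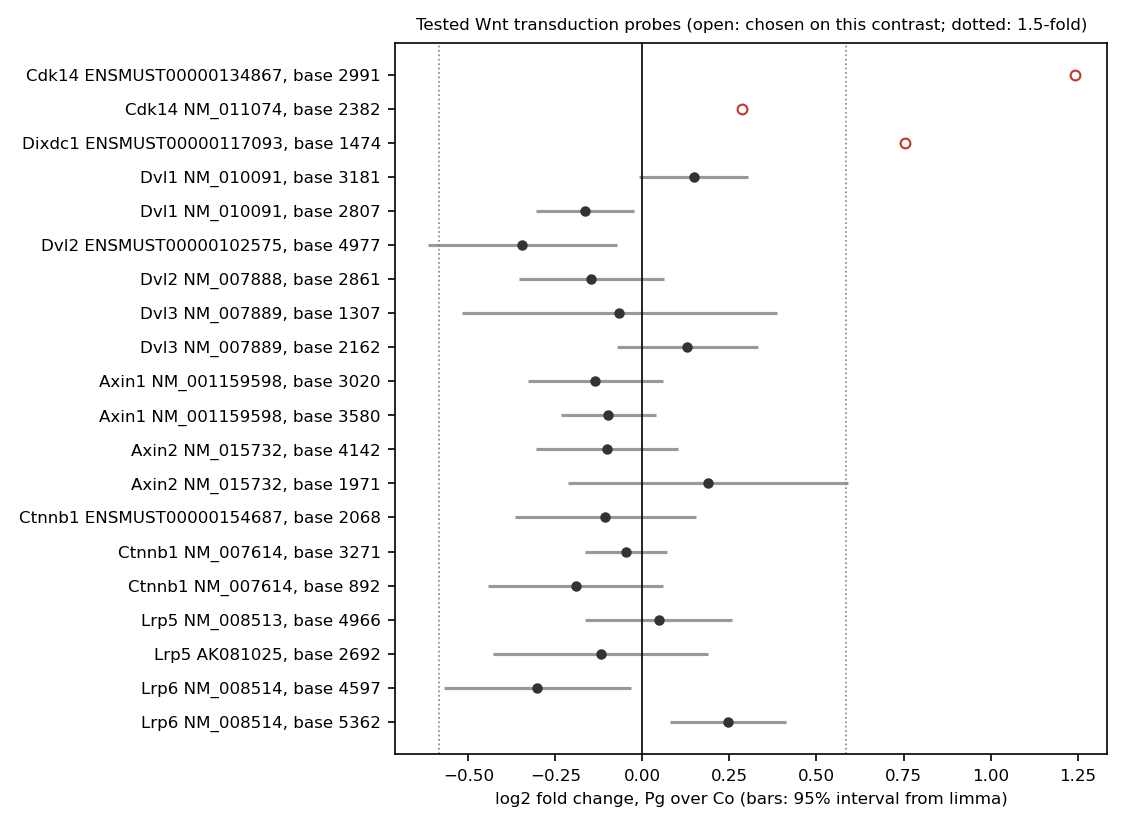
Log2 fold change of Pg over Co for 20 of the 21 tested probes, with bars for the 95% interval from limma on the 17 probes of the 8 genes, and open points without interval for Cdk14 and Dixdc1, which were chosen on this contrast. The Cdk14 probe without a measured Pg level is left out. The 17 fold changes lie between -0.34 and 0.25, inside the dotted lines at 1.5-fold.

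Over the 17 probes of the 8 genes, 12 had a log2 fold change below 0, where 57.7% of all probes tested did, and the median was -0.10 against -0.04 for all. Co and Pg values stood fully apart in 2 of the 17, beside the 15.8% of all probes given above. Their 95% intervals reached from -0.62 to 0.59 at the widest.

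The rest of the pathway was read from 8 lists of 106 genes, of which 87 genes had 157 tested probes. Of these, 2 were called, a share of 1.27% beside 1.61% of all probes tested, and 10 had an adjusted p under 0.1 whatever the fold, where 7.82% of all probes tested did. The groups did not overlap for 18 of them, or 11.5% beside 15.8% of all probes tested, and the median log2 fold change was 0.002 beside -0.04 over all probes tested. Lgr4, a receptor for R-spondins, which strengthen Wnt signals, was lower in Pg mice at the called probe. Its called probe stood at 5.61, 5.63, 5.68 and 5.51 in Co mice and 4.47, 4.61, 5.08 and 4.81 in Pg mice, a log2 fold change of -0.87 ± 0.13 (SE; limma, adjusted p = 0.0411). It passed the background mark on 4 Co and 2 Pg arrays, so the size of its difference is uncertain. The groups did not overlap. Its other probe stood at -0.30 without passing.

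Tle3, a Groucho-type co-repressor that binds TCF factors, was higher in Pg mice at 1 of its 4 tested probes. The probe for ENSMUST00000159140 stood at 6.47, 6.62, 6.76 and 6.88 in Co mice and 7.18, 7.33, 7.43 and 7.40 in Pg mice, a log2 fold change of 0.65 ± 0.10 (SE; limma, adjusted p = 0.0429). Every Pg array lay above every Co array there. Of the other 3 Tle3 probes, 1 was higher and 2 were lower, and none was called. With normexp correction neither gene was called, at -0.31 for Lgr4 and 0.44 for Tle3, and neither was without Co replicate 3, at -0.84 and 0.67.

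By role, the ligand list had 19 tested probes, 10 of them higher and 0 called. Its largest values were those of Wnt5b at 0.53 (limma, adjusted p = 0.101), whose other probe stood at 0.33, and Wnt6 at 0.52 (adjusted p = 0.580), which ran from 0.049 without Pg replicate 4 to 0.84 without Pg replicate 2. The Frizzled list had 17 probes, 10 lower and 0 called, led by Fzd3 at -0.54 and Fzd5 at -0.36 and, at its other probe, -0.18. With an array left out, Fzd3 ran from -0.69 to -0.36 and the leading Fzd5 probe from -0.48 to -0.23. The list of R-spondins, their receptors and the ligases that remove Frizzled had 9 of 11 probes lower, a median of -0.29 and Lgr4 as its only call, while Rspo1 stood at 0.61 (limma, adjusted p = 0.337) and at 0.33 without Co replicate 1. That probe passed the background mark on 3 Co and 2 Pg arrays, so its difference rests in part on unmeasured levels.

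Among the extracellular inhibitors, 10 of 19 probes were lower and 0 were called. Frzb, a secreted decoy for Wnt ligands, stood at 7.18, 7.39, 7.19 and 7.74 in Co mice and 6.51, 5.98, 7.13 and 6.65 in Pg mice. Its log2 fold change was -0.81 (limma, adjusted p = 0.111), and its groups did not overlap, while its other probe stood at -0.50. This Frzb probe was called by limma with the median signal, at -0.59 (adjusted p = 0.0602), with only probes well above background on all 8 arrays (adjusted p = 0.0904) and without Pg replicate 3, at -0.997 (adjusted p = 0.0697). Apcdd1, a membrane inhibitor, had -0.91 with an adjusted p of 0.220 in limma, its Pg values running from 3.18 to 5.29. It passed the background mark on 4 Co and 2 Pg arrays, so the size of its difference is uncertain. Its value was -0.55 without Pg replicate 2 and -1.25 without Pg replicate 3, and its other 2 probes stood at 0.002 and -0.05.

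The partners of the destruction complex had 42 probes, 26 higher and 0 called. Btrc, the F-box protein that recognises marked beta-catenin, had -0.40 (limma, adjusted p = 0.0823), which met the adjusted p but not the fold, and its other probe stood at -0.05. The kinase Csnk1d had -0.37 at 1 probe (limma, adjusted p = 0.126) and 0.12 and -0.08 at its other 2. The nuclear partners had 29 probes, 16 higher, with Tle3 as the only call. Bcl9, which bridges beta-catenin to the Pygo proteins, had -0.53 (limma, adjusted p = 0.0796) and also met the adjusted p alone, while its other 2 probes stood at 0.05 and -0.25.

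The cyclins and kinases nearest to Cdk14 had 11 probes, 8 of them lower and 0 called. The Ccny probe AK006341, for cyclin Y, the activating partner of Cdk14, stood at 0.51 (limma, adjusted p = 0.123), and of the other 3 Ccny probes 1 was higher and 2 were lower. The kinase Cdk15 had -0.36 (adjusted p = 0.217). Among common target genes, 9 of 12 probes were higher and 0 were called, with Wisp1 at 0.63 (limma, adjusted p = 0.199) and Myc at -0.53 (adjusted p = 0.152) and -0.39 at its other probe. No test compared the lists with each other or with the other probes.

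**Figure D4:**
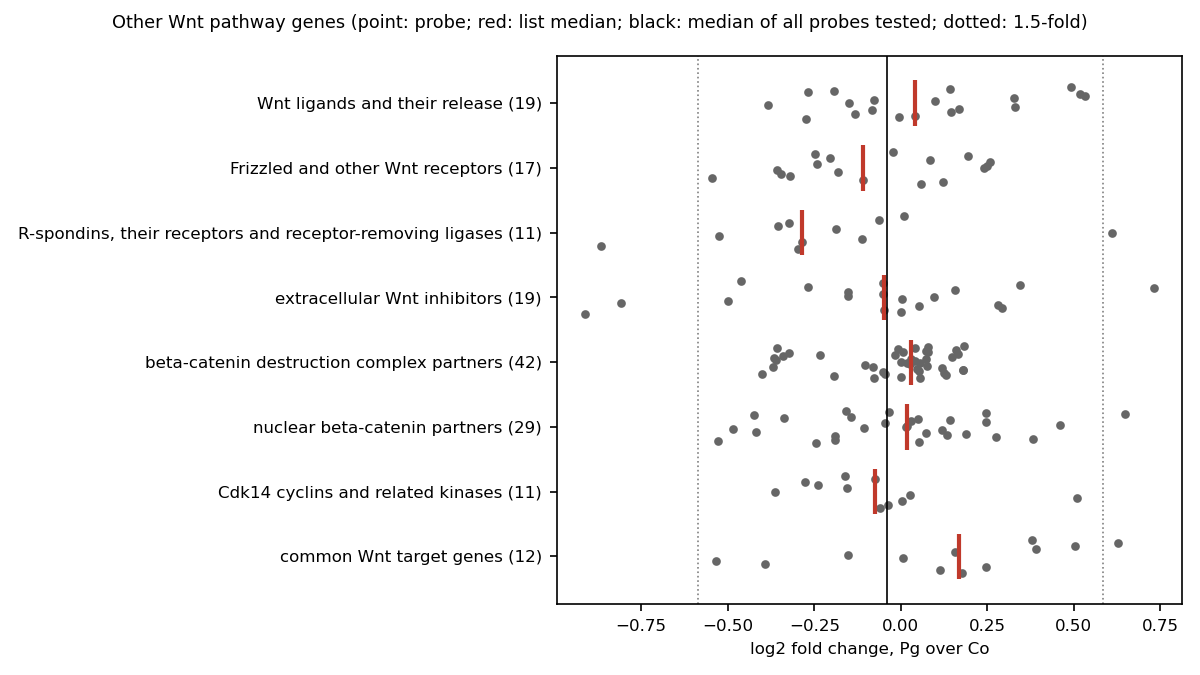
Log2 fold change of Pg over Co for the tested probes of 8 lists of other Wnt pathway genes, with the number of probes beside each list; red marks are list medians and the black line is the median of all probes tested, -0.04. The medians lie between -0.29 for the R-spondin list and 0.17 for the target genes.

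The sizes of the Dixdc1 and Cdk14 differences were not the same in every setting. The Dixdc1 probe gave 0.21 with normexp correction, 0.26 with the median signal and 0.38 with the authors' normalized values. The Cdk14 probe for ENSMUST00000134867 gave 0.44, 0.51 and 0.60 in the same order, and NM_011074 gave 0.16, 0.21 and 0.24. Values were larger with scaling to the 75th percentile and without normalization between arrays. In that order they were 0.90 and 0.95 for Dixdc1, 1.38 and 1.43 for ENSMUST00000134867, and 0.36 and 0.41 for NM_011074. Normexp was run with an added offset of 50 units, and the median signal was taken without background subtraction. Before normalization the Dixdc1 probe lay between 18.2 and 40.3 units over the 8 arrays, below that offset. The part of each setting in these shifts was not tested. All 3 probes stayed above 0 in every setting run that kept them. The calls of the Dixdc1 probe and the lower Cdk14 probe were both lost with normexp, the median signal and the authors' values, since the fold fell below 1.5. Both were also lost with the block on slide column and without Co replicate 3, where the adjusted p from limma passed 0.1.

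**Figure D5:**
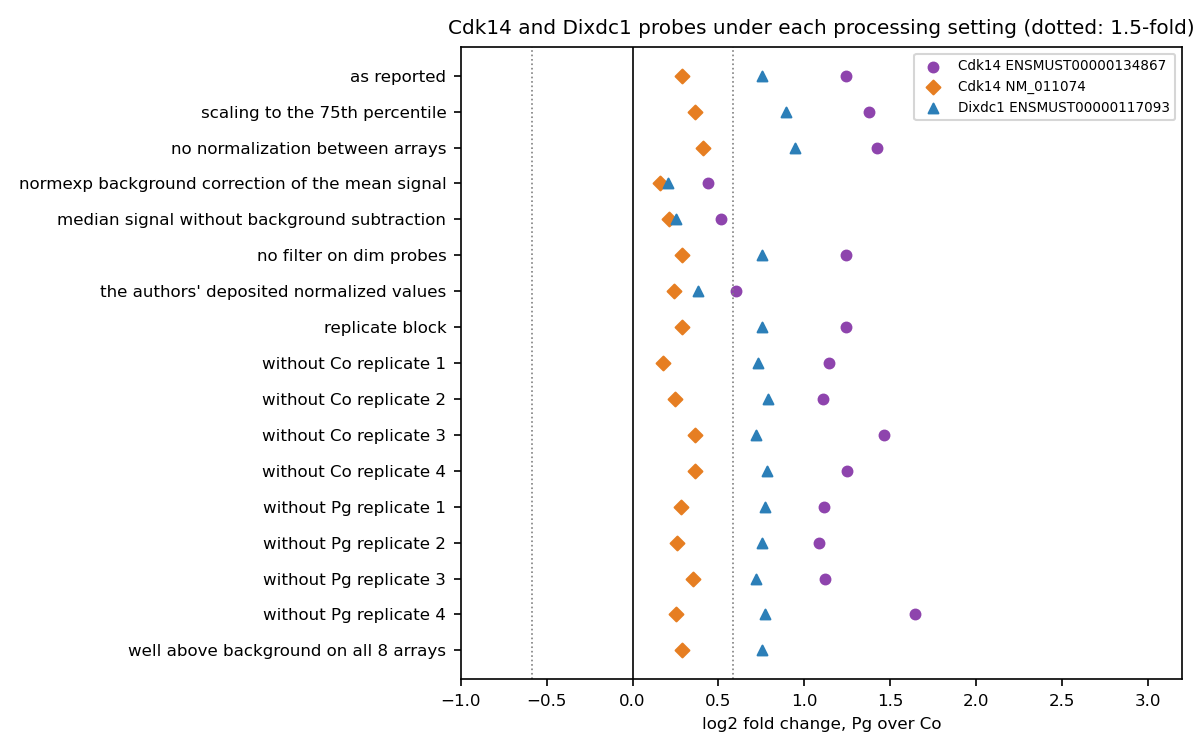
Log2 fold change of Pg over Co for the tested Dixdc1 probe and the 2 Cdk14 probes with arrays of both groups well above background, under each processing setting and with each array left out. All points lie right of 0, and they move towards 0 with normexp, the median signal and the authors' normalized values.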

How the data were processed

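Total RNA of 4 Co and 4 Pg mice was read on single-color (Cy3) arrays. The authors deposited Feature Extraction 11.0.1.1 output, with the intensity of each spot background-subtracted but not normalized between arrays, and a table of normalized log2 values, fold changes and p-values from limma. Only its log2 values, found here to be averages over the probes of an accession, were used, as an alternative. Its fold changes and p-values were not used. Processed intensities were averaged per probe over spots without an outlier mark, quantile-normalized, set to at least 1 and put on the log2 scale (R 4.3.3). Probes had to pass the background mark on 4 or more arrays, which 33819 of 56605 did. limma 3.58.1 compared Pg with Co (two-sided), and p-values were adjusted by Benjamini-Hochberg over these 33819. A call needed an adjusted p under 0.1 and a fold change above 1.5, after the study's methods. The steps were tested on simulated data. Precision is limited by the 4 arrays per group.

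The members, the pathway and marker lists and the tests were chosen with earlier results of these data known, and the exact test of probe pairs after the values were seen. Every member probe is described, and the first bases of 5 are shown; other probe sequences are not reported here. Of the pathway lists, genes with a call and up to 2 per list with the largest change are named. For Dixdc1 the 3 genes most correlated with its tested probe are named. For Cdk14 none are named, since its tested probe of largest change had no measured Pg level. All 16 RefSeq accessions of member probes matched the same symbol in RefSeq. Alternatives were other scalings, background corrections and filters, the authors' log2 values, a replicate block and leaving out each array.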

Additional observations from a re-analysis of the deposited data

Results flagged for a closer look

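Of 52 sets of 4 arrays examined, over the 26 member probes and both groups, 3 had an array far from the other 3, and chance alone marks about 1 in 20 such sets. For Cdk14 ENSMUST00000134867, Pg replicate 4 stood at 4.47 where the other Pg arrays lay between 6.04 and 6.14. For the Dvl3 probe at base 2162, Co replicate 1 stood at 12.52, against 12.20 to 12.24 on the other Co arrays. For the Ctnnb1 probe NM_007614 at base 892, Pg replicate 1 stood at 7.20, against 6.77 to 6.81 on the other Pg arrays.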

How the results depend on the processing

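Of the 10 genes, 2 probes were called as reported and also with scaling to the 75th percentile or without normalization between arrays. The count was 1 with only probes well above background on all 8 arrays, 3 without a filter on dim probes (the RefSeq Dixdc1 probe was added), and 0 with normexp, the median signal or the authors' normalized values. Leaving out an array gave 0 to 3, with 0 without Co replicate 3, which took the calls of Cdk14 and Dixdc1, and 3 without Pg replicate 4, where Cdk14 ENSMUST00000134867 was called at 1.64. Of the other Wnt genes, 2 probes were called as reported, 4 with the 75th percentile, 1 without normalization, 0 with normexp, 1 with the median signal (Frzb), 2 with the filter on all 8 arrays (Tle3 and Frzb), 0 with the authors' values, and 0 to 7 with an array left out. The lowest was without Co replicate 3 and the highest without Pg replicate 3. Tle3 lost its call without Co replicate 1, 2 or 3, and Lgr4 without Co replicate 2 or 3. Over all probes the count was 546, and 283, 27, 94, 108, 318 and 106 with the 75th percentile, no normalization, normexp, the median signal, the filter on all 8 arrays and the authors' values. It was 3 without Co replicate 3 and 697 without Pg replicate 3. The share of calls that were higher in Pg mice moved from 19.4% to 48.4% with the 75th percentile, 74.1% without normalization and 70.2% with normexp. The cause of these changes was not tested.

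With the replicate number as a block, 0 member probes, 0 probes of the other Wnt genes and 0 of all probes were called by limma. The Co and Pg arrays of a number also share a column of the slide, so this is a block on slide column too. The labels do not pair the animals, and deviations of same-numbered arrays correlated at 0.06, -0.03, -0.07 and 0.18. The part of slide position in the calls was not tested further.

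Signs turned for 3 small differences. Dvl3 at base 1307 gave 0.042 with the 75th percentile, 0.092 without normalization and -0.19 to 0.070 with an array left out (above 0 without Co replicate 4, Pg replicate 1 or Pg replicate 4). Lrp5 AK081025 gave 0.027 without normalization, and Lrp5 NM_008513 gave -0.020 to 0.12 with an array left out, below 0 without Co replicate 4. The authors' values hold 1 row per accession, and for 2323 bright accessions with several probes they lay at a median of 0.028 (log2) from the mean of the probes and 0.78 from the probe named, so they give no separate value for probes of Dvl1, Dvl3, Axin1, Axin2, Lrp6 or Ctnnb1 NM_007614. Of the 10 probe differences, the 2 with the smallest p, of Dvl1 and Lrp6, were rerun and kept their sign in the scaling and background settings and with each array left out, and these were chosen after seeing the data.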
